A study of Mus musculus with 12 samples.

Results

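De novo lipogenesis builds fatty acids from acetyl-CoA, and 9 genes of this pathway were followed here in interscapular brown adipose tissue (BAT) of mice. They were chosen by symbol, as the citrate carrier, the enzymes of cytosolic acetyl-CoA, malonyl-CoA, palmitate and NADPH supply, and the transcription factors Srebf1 and Mlxipl. All 9 were among the 25124 genes of the expression table, and all 9 passed the filter of a mean of at least 1 TPM in every comparison. TPM is the usual abundance unit of RNA-seq, a read count scaled for transcript length and library size, so that levels can be set side by side between genes. The 12 libraries were made from poly-A RNA of male mice at 10 weeks of age, 3 in each of 4 groups. The groups were RT WT and RT Txnip-/- (room temperature, 23 °C) and TN WT and TN Txnip-/- (thermoneutrality, 30 °C), each held at its temperature for 1 week on chow. The knockout is present in every tissue of the animal and was kept on a C57B/6J background, so that a difference in BAT can come from BAT or from elsewhere. The study describes the WT mice as littermates of the Txnip-/- mice but does not say which animals shared a litter. Each library was taken as 1 mouse. The limma p-values set a difference of group means against the spread between these libraries within groups, which the fit moderates over all genes.

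In this pathway citrate leaves the mitochondrion, is split to acetyl-CoA in the cytosol, is carboxylated to malonyl-CoA and is then condensed with NADPH into palmitate. SREBP-1 (gene Srebf1), whose transcription and release from the endoplasmic reticulum are promoted by insulin, and ChREBP (gene Mlxipl), which is activated by glucose metabolites and binds DNA as a dimer with Mlx, drive transcription of most of these genes. Brown fat is known for synthesizing and burning fatty acids at the same time when the animal is in the cold. Txnip, an alpha-arrestin that restrains glucose uptake, is itself a known target of ChREBP.

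The RefSeq promoter table (GRCm38.p6, the assembly of mm10) held 13 starts for the 9 genes. In the 250 bases before each start, 4 short motifs were looked for on both strands. They were the E-box CACGTG, which reads the same on both strands and is bound by SREBP-1, ChREBP and USF factors among others, the GC box GGGCGG, the CCAAT box CCAAT and the sterol-element-like core CACCCCAC. The E-box lay in 2 of the 13 windows and in 6.02% of all 32851 promoters of the table. The GC box lay in 7 of the 13, against 32.7% of all promoters. The CCAAT box lay in 8 of the 13, against 33.8%, and CACCCCAC in 0, against 2.58%. A pair of such E-boxes 5 bases apart, the spacing of the looser carbohydrate response element, lay in 0 promoters of the table. A match is a description of the letters and not a binding site, and the absence of one says only that these letters are not in the window.

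Mlxipl is shown first because it has 2 starts, 17001 bases apart, and because it is the lipogenic gene whose RNA passed the test for genotype. The transcript kept in the TPM table begins at the upstream start, and the authors' comparison tables keep another transcript. The exons downstream are shared, so these reads do not tell the ChREBP isoforms apart. Capitals mark the E-box, or, in a window with no E-box, the CCAAT box on either strand. In the upstream window of Mlxipl (chr5:135089640-135089889, plus strand) the E-box begins 98 bases before the start, and the downstream window (chr5:135106641-135106890, plus strand) holds none of the 4 motifs.
Mlxipl upstream start: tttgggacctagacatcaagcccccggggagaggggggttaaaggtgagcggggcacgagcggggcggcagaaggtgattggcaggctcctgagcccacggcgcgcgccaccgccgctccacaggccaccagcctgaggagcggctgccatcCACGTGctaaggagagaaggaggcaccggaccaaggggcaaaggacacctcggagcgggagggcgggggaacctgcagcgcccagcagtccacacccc
Mlxipl downstream start: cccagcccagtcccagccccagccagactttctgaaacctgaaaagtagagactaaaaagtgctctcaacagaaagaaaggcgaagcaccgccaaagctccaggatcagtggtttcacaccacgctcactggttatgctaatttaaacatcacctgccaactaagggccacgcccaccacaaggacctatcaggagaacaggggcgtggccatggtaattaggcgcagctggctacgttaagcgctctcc

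The citrate carrier gene Slc25a1 (chr16:17928220-17928469, minus strand) is the other one with an E-box, which begins 239 bases before its start. Fasn (chr11:120824548-120824797, minus strand) has no E-box and holds CCAAT 3 times, beginning 90, 62 and 59 bases before the start, of which those at 62 and 59 overlap on opposite strands. Both genes were called lower at TN in WT, as were Acacb and Me1, whose windows are not shown. The windows of Slc25a1 and Fasn are given as examples. They are printed 5′ to 3′ on the strand of the gene.
Slc25a1: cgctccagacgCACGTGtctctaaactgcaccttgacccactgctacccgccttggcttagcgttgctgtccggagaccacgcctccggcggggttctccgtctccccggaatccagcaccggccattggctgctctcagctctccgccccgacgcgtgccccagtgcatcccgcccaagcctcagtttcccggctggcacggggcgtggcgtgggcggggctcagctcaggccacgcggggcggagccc
Fasn: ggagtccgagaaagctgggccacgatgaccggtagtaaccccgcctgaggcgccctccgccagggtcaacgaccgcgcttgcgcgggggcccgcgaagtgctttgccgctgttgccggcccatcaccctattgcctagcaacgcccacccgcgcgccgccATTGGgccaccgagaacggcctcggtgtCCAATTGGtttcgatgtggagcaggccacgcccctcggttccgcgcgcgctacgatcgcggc

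The libraries held between 29.9 and 47.4 times 1000000 reads, and no count per gene was used, so the precision of each value comes from the spread within a group. Txnip itself was between 564 and 694 TPM in RT WT and between 1072 and 1238 TPM in TN WT, against 24.8 to 35.4 TPM in RT Txnip-/- and 10.5 to 14.4 TPM in TN Txnip-/-, so that every library matched its genotype label. The tissue was brown fat by its markers. The summed level of 10 brown adipocyte markers was 11650 to 12221 TPM in RT WT, 8809 to 11053 TPM in RT Txnip-/-, 6884 to 7798 TPM in TN WT and 3876 to 4506 TPM in TN Txnip-/-. The 8 general adipocyte markers summed to between 18264 and 23821 TPM over all libraries. In bulk tissue, fewer cells of a type and less RNA per cell cannot be told apart. For the lipogenic genes, RT WT replicate 3 was the highest library of its group in 8 of 9, against 25.5% of all 12486 genes with a mean of at least 1 TPM, and TN WT replicate 2 was the highest of its group in 8 of 9, against 36.7%. Calls and directions of the lipogenic genes between genotypes or temperatures that turn on either library are given with and without it.

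Fasn was by far the most abundant of the lipogenic transcripts, with a mean of 3063 TPM over the 12 libraries, which placed it at rank 8 of all listed genes. Acly followed at 825 TPM, Slc25a1 at 389 TPM, Acacb at 287 TPM, Acaca at 216 TPM, Acss2 at 204 TPM, Mlxipl at 171 TPM, Me1 at 137 TPM and Srebf1 at 131 TPM (rank 660). Down to Acaca, each gene stood above the next in 12 of 12 libraries. Below it the order was not stable, and Acaca exceeded Acss2 in 6 of 12 libraries, namely in all 6 Txnip-/- and in no WT library. Acss2 and Mlxipl, Mlxipl and Me1, and Me1 and Srebf1 also changed places between libraries. The 9 genes together summed to a median of 5102 TPM in RT WT, 6884 TPM in RT Txnip-/-, 3273 TPM in TN WT, with 5517 TPM in TN Txnip-/-. Fasn alone made up 56.6% to 63.9% of that sum in RT WT, 56.8% to 60.8% in RT Txnip-/-, 47.6% to 51.2% in TN WT and 54.5% to 55.2% in TN Txnip-/-.

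**Figure D1:**
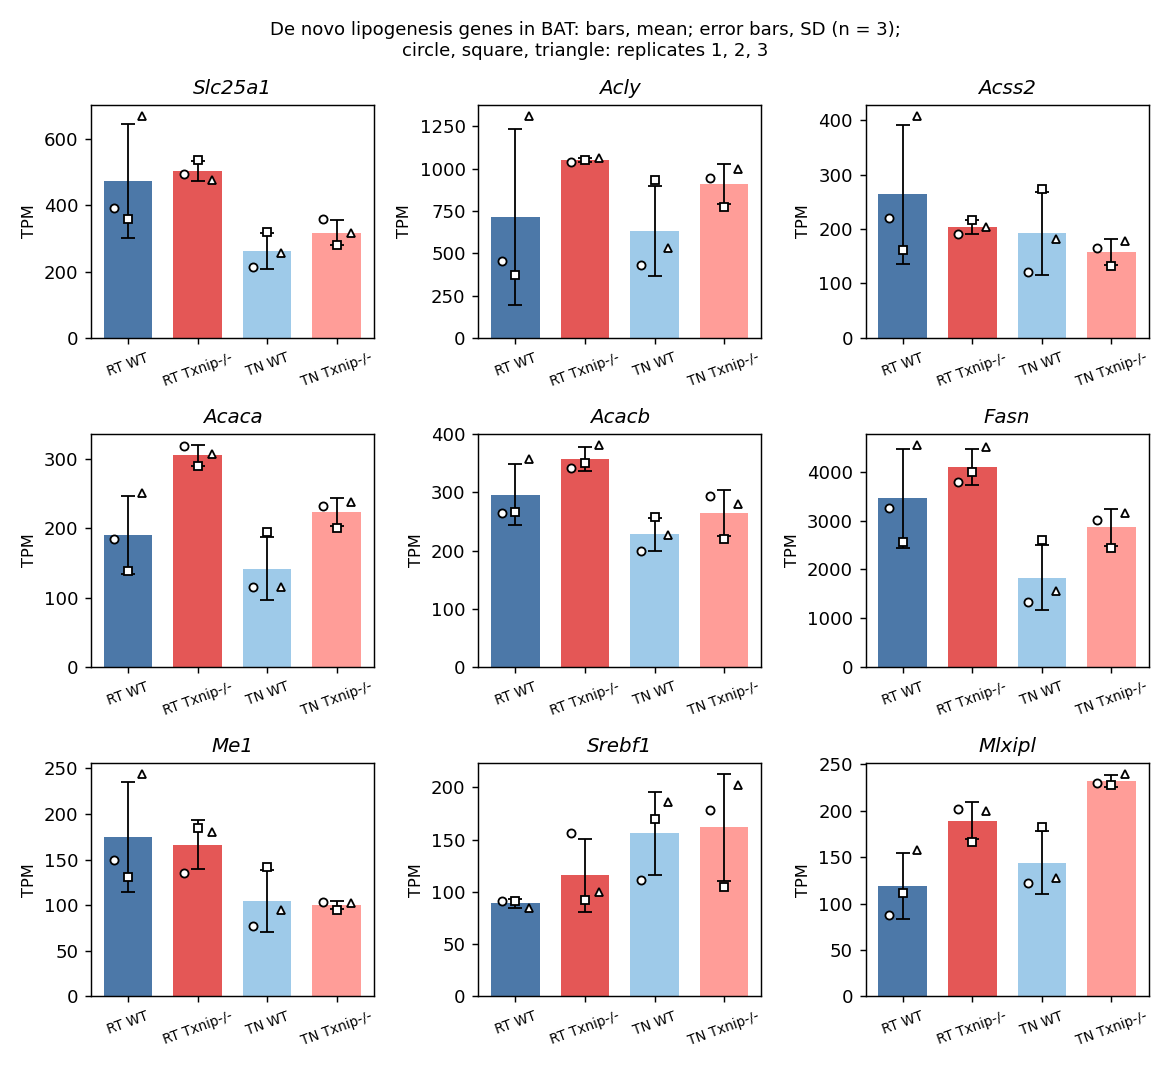
TPM of each lipogenic gene in the 4 groups, with bars for the mean, error bars for the SD (n = 3) and 1 symbol for each library (circle, square and triangle for replicates 1, 2 and 3). The triangle of RT WT and the square of TN WT lie at the top of their groups in 8 of 9 panels, and the 3 symbols of Mlxipl in TN Txnip-/-, between 227 and 239 TPM, all lie above those of TN WT.

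Slc25a1 (NM_153150, chr16:17925211-17928219) encodes the carrier that moves citrate out of the mitochondrion. Its level was 390.5, 359 and 670 TPM in RT WT, 494, 536 and 478 TPM in RT Txnip-/-, 213, 321 and 255 TPM in TN WT, and 357, 281 and 315 TPM in TN Txnip-/-. The genotypes overlapped at both temperatures, and all 3 TN libraries of each genotype lay below all 3 RT libraries. At TN the level was 0.57 times that at RT in WT on the TPM + 1 scale, a log2 fold change of -0.81 ± 0.21 (SE; limma adjusted p = 0.00770). In Txnip-/- it was -0.67 ± 0.21 (limma adjusted p = 0.0189). The difference between genotypes was 0.14 ± 0.22 at RT (limma adjusted p = 0.80; -0.03 without replicate 2 of WT) and 0.29 ± 0.15 at TN (limma adjusted p = 0.29).

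Acly (NM_134037, chr11:100476352-100528000) encodes ATP citrate lyase, which splits citrate into acetyl-CoA and oxaloacetate in the cytosol. It stood at 456, 373 and 1312 TPM in RT WT, a coefficient of variation of 72.8%, and at 1039, 1050 and 1060 TPM in RT Txnip-/-, one of 0.99%. In TN WT it was 430, 932 and 528 TPM and in TN Txnip-/- 946, 775 and 1000 TPM. Replicate 3 of RT WT was above every Txnip-/- library, while the others of its group were well below them. At TN, replicate 2 of WT lay above replicate 2 of Txnip-/-. The genotypes overlapped at both temperatures, and Txnip-/- exceeded WT on the log2 scale by 0.79 ± 0.42 at RT (limma adjusted p = 0.41) and 0.60 ± 0.26 at TN (limma adjusted p = 0.19). Temperature gave -0.03 ± 0.39 in WT and -0.22 ± 0.39 in Txnip-/-, and neither passed the test (limma adjusted p = 0.96 and 0.66). The value in WT was 0.53 without replicate 3 of RT WT, and 0.21 and 0.06 without replicates 1 and 3 of TN WT.

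Acss2 (NM_019811, chr2:155518043-155562743) makes acetyl-CoA from acetate in the cytosol and nucleus. Its values were 221, 162 and 408 TPM in RT WT, 191, 217 and 203 TPM in RT Txnip-/-, 121, 274 and 181 TPM in TN WT, and 166, 132 and 177 TPM in TN Txnip-/-. It was one of only 2 of the 9 genes with a lower fitted level in Txnip-/-, and the groups overlapped. The log2 fold change was -0.26 ± 0.29 at RT and -0.21 ± 0.26 at TN (limma adjusted p = 0.72 and 0.68). The direction turned without replicate 3 of RT WT (0.10) and without replicate 2 of TN WT (0.08). From RT to TN it was -0.43 ± 0.32 in WT, with overlap, and -0.37 ± 0.32 in Txnip-/-, where all TN libraries lay below all RT libraries (limma adjusted p = 0.28 and 0.34). Exons of Acss2 share bases on the opposite strand with Acss2os, Ggt7 and Gss, and whether strand was used in the counting is not given in the sources used here.

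Acaca (NM_133360, chr11:84195438-84401651) encodes acetyl-CoA carboxylase 1, whose cytosolic malonyl-CoA feeds fatty acid synthesis. It was 185, 138 and 251 TPM in RT WT and 319.6, 290.1 and 307 TPM in RT Txnip-/-. At TN it was 116, 194 and 115 TPM in WT and 233, 201 and 239 TPM in Txnip-/-. The genotypes did not overlap at either temperature, with each Txnip-/- library above each WT library. The log2 fold change was 0.71 ± 0.19 at RT and 0.70 ± 0.19 at TN, or 1.64 and 1.62 times on the TPM + 1 scale. Neither passed the adjusted threshold in the fit across all genes (limma adjusted p = 0.128 and 0.0615). The exact two-sided permutation test gave 0.1 at each temperature, the smallest p that 3 libraries against 3 can give. From RT to TN, all 3 Txnip-/- libraries were lower and the WT libraries overlapped (-0.45 ± 0.22 and -0.43 ± 0.22, limma adjusted p = 0.101 and 0.114).

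Acacb (NM_133904, chr5:114165518-114250758) encodes acetyl-CoA carboxylase 2, whose malonyl-CoA at the outer mitochondrial membrane inhibits fatty acid entry through Cpt1. It was 265, 267 and 357 TPM in RT WT, 342, 350.2 and 381 TPM in RT Txnip-/-, 200, 257 and 226 TPM in TN WT, and 293, 219.5 and 281 TPM in TN Txnip-/-. All TN libraries lay below all RT libraries of the same genotype. The log2 fold change from RT to TN was -0.37 ± 0.14 in WT and -0.44 ± 0.14 in Txnip-/- (limma adjusted p = 0.0413 and 0.0178). The genotypes overlapped, with 0.28 ± 0.12 at RT and 0.21 ± 0.13 at TN (limma adjusted p = 0.30 and 0.37).

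Fasn (NM_007988, chr11:120805958-120824547) encodes fatty acid synthase, which assembles palmitate. Its level was 3258, 2554 and 4547 TPM in RT WT and 3792, 3997 and 4515 TPM in RT Txnip-/-. At TN it was 1342, 2596 and 1559 TPM in WT and 3012, 2435 and 3151 TPM in Txnip-/-. Replicate 2 of TN WT reached the Txnip-/- range and RT range, while the other TN WT libraries were the lowest of all 12. In WT the level fell from RT to TN by 0.93 on the log2 scale, to 0.52 times (SE 0.24, limma adjusted p = 0.00751), although the groups overlapped. In Txnip-/- the TN libraries all lay below the RT libraries, by -0.52 ± 0.24 (limma adjusted p = 0.0874). Txnip-/- over WT gave 0.29 ± 0.19 at RT and 0.70 ± 0.23 at TN (limma adjusted p = 0.53 and 0.104).

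Me1 (NM_008615, chr9:86581363-86695914) encodes the cytosolic malic enzyme, which yields NADPH for the synthase. It stood at 149.8, 131 and 244 TPM in RT WT, 135, 184 and 179.7 TPM in RT Txnip-/-, 76.8, 142 and 94.96 TPM in TN WT, and 104, 95.04 and 102 TPM in TN Txnip-/-. The genotypes overlapped at both temperatures and their fitted difference was close to 0, at -0.03 with a 95% interval from -0.57 to 0.51 at RT and -0.01 with one from -0.46 to 0.43 at TN. It was above 0 at RT without replicate 3 of WT (0.23) or replicate 1 of Txnip-/- (0.11), and at TN without replicate 2 of WT (0.23) or of Txnip-/- (0.03). From RT to TN it was lower by -0.73 ± 0.24 in WT and -0.71 ± 0.24 in Txnip-/- (limma adjusted p = 0.0251 and 0.0269). The WT groups overlapped at 1 library of each temperature. Its exons share bases on the opposite strand with A330041J22Rik.

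Srebf1 (NM_001358314, chr11:60199084-60210471) encodes SREBP-1, of which the 1c form is the lipogenic one in adipose tissue and liver. RefSeq gives 3 starts for it, and the TPM row cannot tell the forms apart. Its level was 90.7, 91.4 and 84.4 TPM in RT WT, 156, 92.3 and 99.7 TPM in RT Txnip-/-, 111, 169.9 and 186 TPM in TN WT, and 178, 104.5 and 202 TPM in TN Txnip-/-. All TN WT libraries lay above all RT WT libraries, opposite to the enzymes. The log2 fold change of TN over RT in WT was 0.77 ± 0.26 (limma adjusted p = 0.0278), but this call was lost with upper-quartile scaling (0.59, limma adjusted p = 0.0817) and with median centring of each library (0.59, limma adjusted p = 0.0812). In Txnip-/- it was 0.46 ± 0.26 with overlapping groups (limma adjusted p = 0.158). Txnip-/- over WT gave 0.34 ± 0.18 at RT, where the groups did not overlap but replicate 2 of Txnip-/- exceeded the highest WT library only slightly and the value was 0.11 without replicate 1 of Txnip-/-, and 0.03 ± 0.27 at TN (limma adjusted p = 0.41 and 0.96). The value at TN was below 0 without replicate 1 of WT (-0.19) and without replicate 1 or 3 of Txnip-/- (-0.07 and -0.16). Rai1 shares exon bases with Srebf1 on the opposite strand.

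Mlxipl (NM_001359237, chr5:135089890-135138201) encodes ChREBP. It was 87.5, 112 and 157 TPM in RT WT and 202.5, 166 and 199.7 TPM in RT Txnip-/-. At TN it was 122, 183 and 128 TPM in WT and 229.8, 227 and 239 TPM in Txnip-/-, the tightest group of the gene. Every Txnip-/- library was above every WT library of its temperature. At TN the log2 fold change was 0.71 ± 0.14, or 1.63 times with a 95% interval of the log2 value from 0.38 to 1.03 (limma adjusted p = 0.0228). This call was lost when genes of low level were kept in the test (limma adjusted p = 0.0607) and when any of 5 of the 6 libraries was left out (limma adjusted p between 0.0544 and 0.0774). At RT it was 0.70 ± 0.20 with an interval from 0.24 to 1.17 (limma adjusted p = 0.146). The temperatures differed by 0.29 ± 0.19 in WT and 0.30 ± 0.19 in Txnip-/- (limma adjusted p = 0.22 and 0.21). Gm43500 shares exon bases on the opposite strand.

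Txnip-/- was compared with WT at each temperature to ask what loss of Txnip does to the resting tissue. At RT, 7 of the 9 lipogenic genes had a fitted level above WT and 2 (Acss2 and Me1) below it, with a median log2 fold change of 0.29 against 0.03 over all 11980 genes tested. None was called at a limma adjusted p under 0.05 and a fold below 0.8 or above its inverse, a call made for 1.49% of all genes tested in either direction. At an unadjusted p under 0.05 there were 3 (Acaca, Acacb and Mlxipl), against 16.0% of all genes tested. Acaca, Srebf1 and Mlxipl had no overlap between genotypes, all higher in Txnip-/-, as did 15.1% of all genes tested. Without replicate 3 of RT WT, 4 genes were called higher in Txnip-/-, namely Acly (1.35, limma adjusted p = 0.00503), Acaca (0.93, limma adjusted p = 0.0277), Acacb (0.43, limma adjusted p = 0.0385) and Mlxipl (0.92, limma adjusted p = 0.0334), as were 0.616% of all genes tested in that fit, and Acss2 and Me1 also had a fitted level above WT (0.10 and 0.23). That library was singled out because it was the highest of its group in 8 of the 9 genes. Leaving it out thus raises Txnip-/- over WT in them by selection, and the count is a description only. Markers of several cell types moved with the genotype at RT. Skeletal muscle markers summed over 7 genes to 20.2 to 50.2 TPM in Txnip-/- against 2.40 to 2.97 TPM in WT, with 6 of 6 tested called higher. Macrophage markers summed to 132 to 214 TPM against 79.1 to 92.3 TPM, with 3 of 8 tested called higher, and 2 of 10 brown adipocyte markers were called lower. Of lymphocyte markers 1 of 3 tested was called higher and of Schwann cell markers 1 of 5 lower, while 0 were called among the general adipocyte, white adipocyte, endothelial, fibroblast and red blood cell markers. Their part in these values was not tested.

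At TN, 1 of the 9 was called, Mlxipl, higher in Txnip-/-, where 6.49% of all 12891 genes tested were called higher and 2.17% lower. Again 7 of 9 had a fitted level above WT, with Acss2 and Me1 below it, and the median was 0.29 against 0.01 over all genes tested. At an unadjusted p under 0.05 there were 4 (Acly, Acaca, Fasn and Mlxipl), against 25.6% of all genes tested. Acaca and Mlxipl had no overlap between genotypes, as did 17.7% of all genes tested in that direction. The limma adjusted p of Mlxipl was 0.0576 and 0.0774 without replicates 1 and 3 of TN WT, and 0.0744, 0.0661 and 0.0544 without replicates 1, 2 and 3 of TN Txnip-/-, with a log2 fold change between 0.60 and 0.72. Without replicate 2 of TN WT, 4 genes were called higher, Acly (0.92, limma adjusted p = 0.0205), Acaca (0.95, limma adjusted p = 0.00973), Fasn (0.98, limma adjusted p = 0.0187) and Mlxipl (0.89), as were 4.93% of all genes tested in that fit, and Acss2 and Me1 turned above WT (0.08 and 0.23). This library too was singled out as the highest of its group in 8 of the 9 genes, so that count is a description only.

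Markers of other cell types moved with the genotype at TN. The 10 macrophage markers summed to 493 to 701 TPM in TN Txnip-/- against 173 to 305 TPM in TN WT, and 10 of 10 were called higher. The 6 fibroblast markers summed to 740 to 748 TPM against 328 to 439 TPM, with 6 of 6 higher. Of the brown adipocyte markers 6 of 10 were called lower, and of the general adipocyte markers 0 of 8 were called in either direction, with sums of 18264 to 20072 TPM in Txnip-/- and 18293 to 19897 TPM in WT. The white adipocyte markers summed to 219 to 300.2 TPM against 164 to 191 TPM, with 3 of 5 tested higher. Of lymphocyte markers 2 of 5 and of endothelial markers 1 of 6 were called higher, and 1 of 5 Schwann cell markers was called lower. What part these shares of RNA had in the lipogenic values was not tested.

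**Figure D2:**
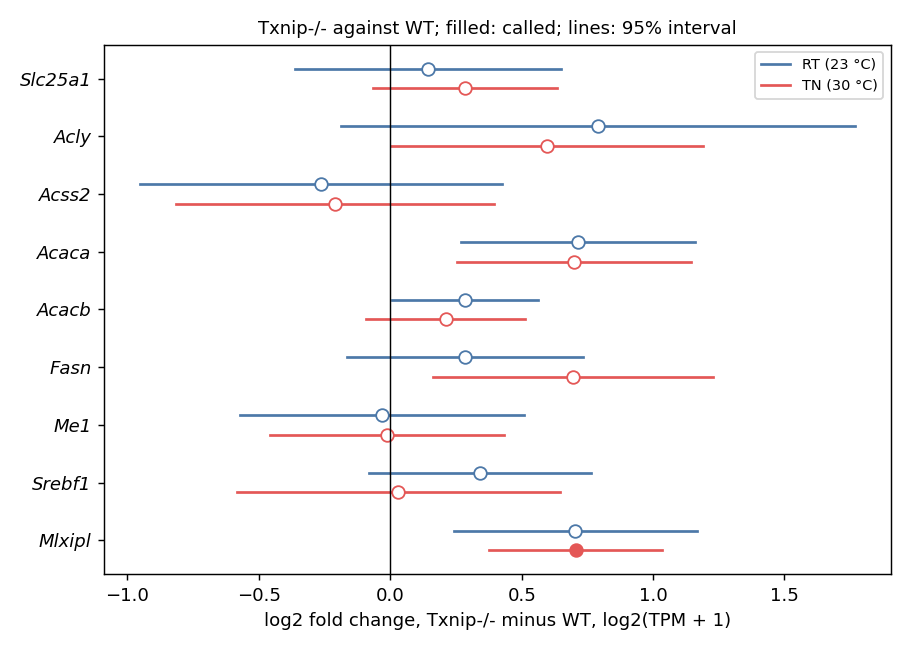
Log2 fold change of Txnip-/- over WT on the log2(TPM + 1) scale for each lipogenic gene at RT and TN, with the 95% interval from limma as a line and a filled point where the gene was called. Only Mlxipl at TN (0.71) has a filled point, and Acss2 and Me1 have points below 0 at both temperatures.

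TN was compared with RT within each genotype to ask what housing without cold load does to the gene set. These comparisons use the same libraries as those between genotypes. The median of all 12486 genes tested was itself above 0, by 0.18 in WT and 0.15 in Txnip-/- on the log2 scale, and changes are to be read against it. In WT, 1 of the 9 was called higher (Srebf1) against 31.4% of all genes tested, and 4 were called lower (Slc25a1, Acacb, Fasn and Me1) against 6.39%. In Txnip-/-, 0 were called higher against 30.9%, and 3 were called lower (Slc25a1, Acacb and Me1) against 8.27%. Of all calls, 83.1% were higher at TN in WT and 78.9% in Txnip-/-. With upper-quartile scaling these shares were 55.5% and 56.01%, and with median centring 51.1% and 48.5%.

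Relative to the median of all genes, the enzymes and the carrier stood at -1.12 (Fasn), -0.99 (Slc25a1), -0.91 (Me1), -0.62 (Acaca), -0.61 (Acss2), -0.55 (Acacb) and -0.21 (Acly) in WT. The same relative values in Txnip-/- were -0.67 (Fasn), -0.82 (Slc25a1), -0.86 (Me1), -0.60 (Acaca), -0.52 (Acss2), -0.60 (Acacb) and -0.37 (Acly). The 7 were thus below the median of all genes in both genotypes, but Acly in WT stood above it without replicate 3 of RT WT (0.36) or replicate 1 of TN WT (0.02). The regulators were above it, with Srebf1 at 0.59 and Mlxipl at 0.11 in WT and at 0.31 and 0.15 in Txnip-/-, but Mlxipl in WT stood below it without replicate 1 of RT WT (-0.09) or replicate 2 of TN WT (-0.06). In Txnip-/- each of these 7 genes had every TN library below every RT library, as did 16.9% of all genes tested, and in WT only Slc25a1 and Acacb did so, as did 11.96% of all genes tested. With upper-quartile scaling or median centring, 5 genes were called lower in each genotype, Slc25a1, Acaca, Acacb, Fasn and Me1, and 0 higher. The share of all genes called lower was also larger then, at 14.1% in WT and 16.7% in Txnip-/- with upper-quartile scaling and 14.7% and 19.5% with median centring.

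Several of these calls depended on 1 library. In WT, Slc25a1 and Fasn were called lower with any library left out. The call of Srebf1 was lost without replicate 1, 2 or 3 of RT WT (limma adjusted p = 0.0519, 0.0547 and 0.0718) and without replicate 2 or 3 of TN WT (0.0877 and 0.0986, limma adjusted p). That of Me1 was lost without replicate 3 of RT WT (limma adjusted p = 0.101) and without replicate 1 or 3 of TN WT (limma adjusted p = 0.0998 and 0.0688). Acacb was lost without replicate 3 of RT WT, replicate 2 or 3 of RT Txnip-/-, or replicate 1 or 3 of TN WT (limma adjusted p = 0.169, 0.0527, 0.0501, 0.142 and 0.0836), and also when genes of low level were kept in the test (limma adjusted p = 0.0675). Its log2 fold change stayed at -0.37 in the fits without a Txnip-/- library, without replicate 3 of TN WT and with genes of low level, and was -0.23 and -0.28 without replicate 3 of RT WT and replicate 1 of TN WT. Acaca was called lower in WT without replicate 2 of RT WT or of TN WT (limma adjusted p = 0.0278 and 0.0155), and Mlxipl higher without replicate 3 of RT WT (0.52, limma adjusted p = 0.0275).

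In Txnip-/-, Slc25a1 was lost without replicate 2 of RT Txnip-/- or of TN Txnip-/- (limma adjusted p = 0.0616 and 0.0667). Acacb was lost without replicate 3 of RT Txnip-/- or replicate 2 of TN Txnip-/- (limma adjusted p = 0.0616 and 0.0759). Me1 was lost without replicate 2 or 3 of RT Txnip-/- or any replicate of TN Txnip-/- (limma adjusted p between 0.0542 and 0.0890). Srebf1 was called higher without replicate 1 of RT Txnip-/- (0.69, limma adjusted p = 0.0443) or replicate 2 of TN Txnip-/- (0.74, limma adjusted p = 0.0236). Without replicate 2 of TN WT, which enters this fit through the shared spread and the filter, Acaca and Fasn were called lower as well (-0.45 and -0.52, limma adjusted p = 0.0432 and 0.0336), where 8.31% of all genes tested were. When only the 6 libraries of Txnip-/- were fitted, 6 genes were called lower, with Acss2, Acaca and Fasn added (limma adjusted p = 0.0249, 0.00297 and 0.00711), against 8.41% of all genes tested. In WT alone 2 were called lower, against 6.33%, and Srebf1 higher, and Acacb and Me1 were lost (limma adjusted p = 0.0603 and 0.0642).

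**Figure D3:**
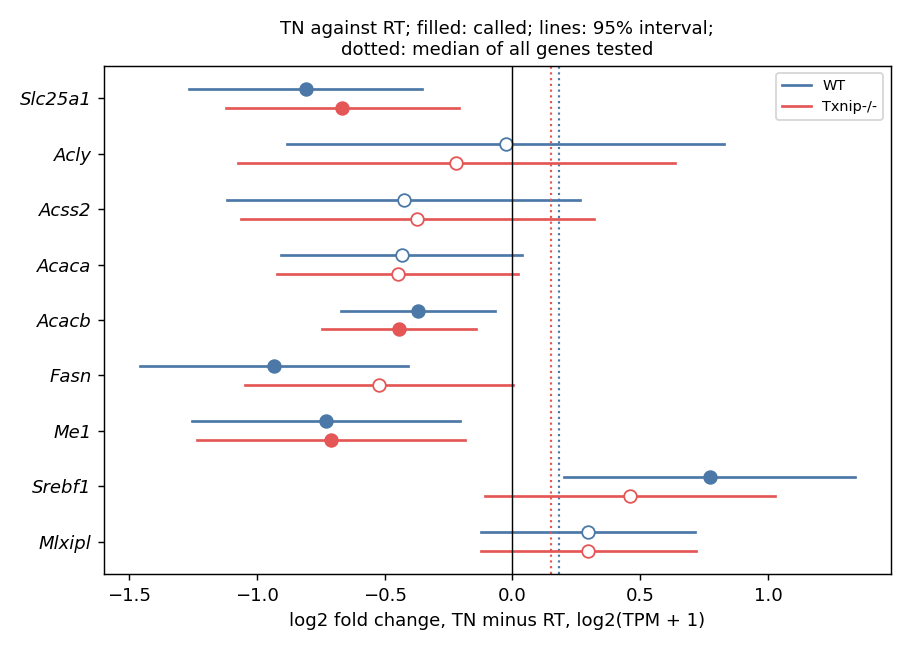
Log2 fold change of TN over RT on the log2(TPM + 1) scale in WT and Txnip-/-, with the 95% interval from limma as a line, a filled point where the gene was called and a dotted line at the median of all genes tested (0.18 and 0.15). The enzymes and the carrier lie to the left of the dotted lines, and Srebf1 and Mlxipl to the right.

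Markers moved with temperature as well. Of the brown adipocyte markers 6 of 10 were called lower at TN in WT and 8 of 10 in Txnip-/-. The macrophage markers were called higher in 10 of 10 in both genotypes, from a sum of 79.1 to 92.3 TPM at RT in WT and of 132 to 214 TPM at RT in Txnip-/-. Of 5 white adipocyte markers tested, 4 were called higher in each genotype. The fibroblast markers were higher in 6 of 6 in both, the endothelial markers in 4 of 6 in WT and 6 of 6 in Txnip-/-, and the lymphocyte markers in 4 and 5 of 5. The skeletal muscle markers were called lower in 6 of 6 in Txnip-/-, with a median log2 fold change of -1.84, and in 0 of 6 in WT. Of the general adipocyte markers 2 of 8 were higher and 2 lower in WT, and 1 and 2 in Txnip-/-. Of 5 Schwann cell markers 1 was lower in WT and 2 were higher in Txnip-/-. Their part in the lipogenic values was not tested.

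The interaction asks whether the genotype difference at TN departs from that at RT. None of the 9 genes was called by limma, a call made for 0.00801% of all 12486 genes tested (1 gene, Txnip itself), and none had an unadjusted p under 0.05, against 1571 of all genes. The largest estimates were 0.41 for Fasn, with a 95% interval from -0.33 to 1.15, and -0.31 for Srebf1, with one from -1.11 to 0.49. For Mlxipl it was 0.00 with an interval from -0.59 to 0.59, and for Acaca -0.02 with an interval from -0.68 to 0.65. A genotype difference that depends on temperature was thus not detected for the 9 genes. With intervals of this width it is not shown to be absent.

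Ratios of TPM within a library do not depend on how libraries are scaled. The pairs were chosen with the levels known. All 7 pairs computed are given, over both temperatures, as a description with no share over other pairs of genes to set them against. Acly over Acss2, the citrate route against the acetate route to acetyl-CoA, was 2.07, 2.30 and 3.22 in RT WT from lowest to highest and 4.85, 5.22 and 5.44 in RT Txnip-/-. At TN it was 2.92, 3.403 and 3.55 in WT and 5.65, 5.71 and 5.87 in Txnip-/-. Each Txnip-/- library was above each WT library, a difference of the mean log2 ratio of 1.06 at RT and 0.81 at TN. The replicates of WT that were high in Acly were high in Acss2 as well, so that the ratio varied less than either gene.

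Acaca over Acacb, the cytosolic against the mitochondrial acetyl-CoA carboxylase, was 0.52, 0.70 and 0.70 in RT WT and 0.80, 0.83 and 0.94 in RT Txnip-/-. At TN it was 0.51, 0.58 and 0.76 in WT and 0.79, 0.85 and 0.92 in Txnip-/-. Mlxipl over its partner gene Mlx was 3.53, 4.03 and 6.21 in RT WT, 7.29, 7.87 and 11.4 in RT Txnip-/-, 5.80, 6.33 and 11.1 in TN WT, and 13.9, 13.9 and 14.5 in TN Txnip-/-. In these 3 ratios the genotypes did not overlap at either temperature. Fasn over Acaca, the synthase against the cytosolic carboxylase, was 17.7, 18.1 and 18.5 in RT WT and 11.9, 13.8 and 14.7 in RT Txnip-/-, lower without overlap, and overlapped at TN at 11.6 to 13.6 in WT and 12.1 to 13.2 in Txnip-/-. Fasn over Acacb overlapped at RT, at 9.58 to 12.7 in WT and 11.1 to 11.8 in Txnip-/-, and was higher in Txnip-/- at TN, at 10.3 to 11.2 against 6.71 to 10.1. Srebf1 over Mlxipl overlapped at RT, at 0.54 to 1.04 in WT and 0.50 to 0.77 in Txnip-/-, and was lower in Txnip-/- at TN, at 0.46 to 0.84 against 0.91 to 1.46. Srebf1 over Srebf2 was higher in Txnip-/- at RT, at 7.58 to 11.04 against 6.47 to 7.29, and overlapped at TN. The exact two-sided permutation test gave p = 0.1 for each of the 10 comparisons without overlap, the smallest value that 3 libraries against 3 can give, so none of the 14 can pass 0.05 (0.14 after Benjamini-Hochberg adjustment over the 14). Exons of Mlx share 385 bases with Psmc3ip on the opposite strand. A ratio shows that its genes differed unequally, not which of them changed.

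**Figure D4:**
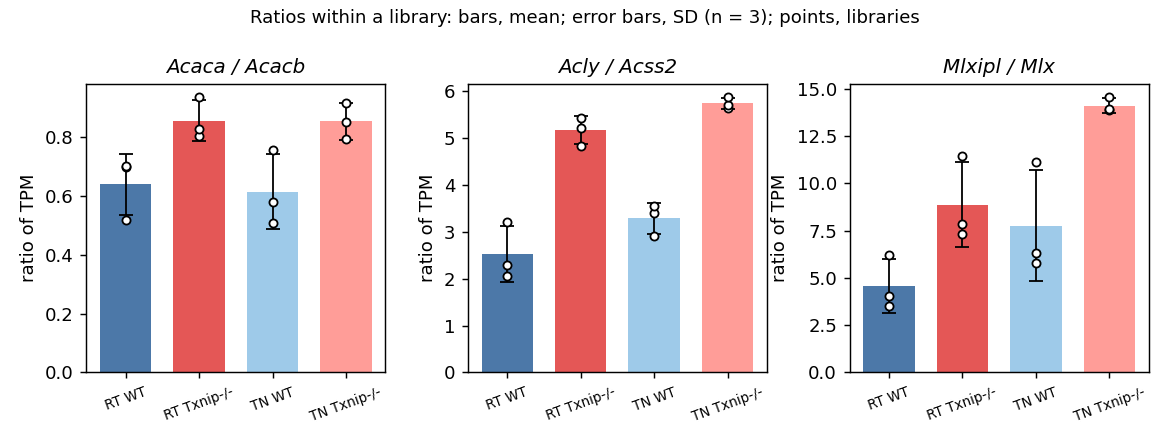
Ratio of TPM within a library for Acaca over Acacb, Acly over Acss2 and Mlxipl over Mlx in the 4 groups, with bars for the mean, error bars for the SD (n = 3) and points for the libraries. In each panel the Txnip-/- points lie above the WT points of the same temperature.

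To see how the 9 genes varied together, each was centred and scaled over the 12 libraries on the log2(TPM + 1) scale and the scaled values were averaged. The mean was -0.37, -0.67 and 0.99 in RT WT, 0.66, 0.59 and 0.71 in RT Txnip-/-, -1.39, 0.20 and -0.77 in TN WT, and 0.23, -0.46 and 0.28 in TN Txnip-/-. The RT Txnip-/- libraries lay close together, with 8 of 9 genes above their own mean in each, and the WT libraries were spread widely at both temperatures. RT WT replicate 3 had the highest mean of all 12 libraries. The SD of log2(TPM + 1) was larger in WT than in Txnip-/- for 8 of 9 genes at RT, against 50.6% of all genes, and for 7 of 9 at TN, against 54.9%. This count was chosen after the values were seen, and the genes share their libraries and are not independent.

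**Figure D5:**
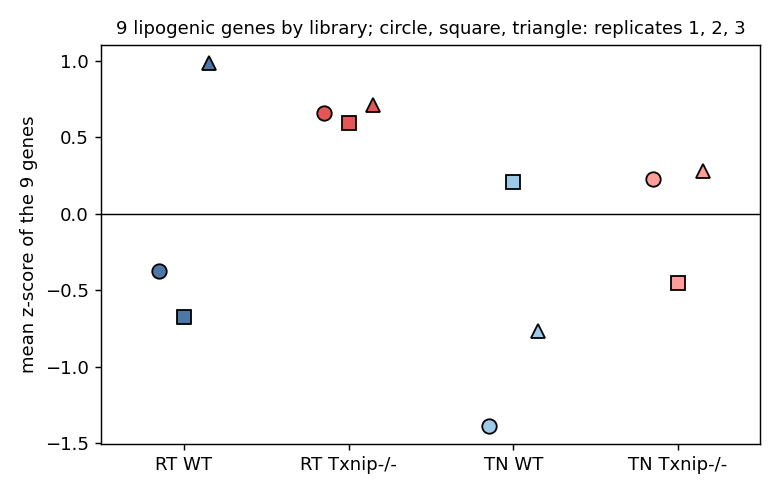
Mean of the scaled log2(TPM + 1) values of the 9 lipogenic genes in each library, by group, in units of the SD over the 12 libraries (circle, square and triangle for replicates 1, 2 and 3). The RT Txnip-/- points lie between 0.59 and 0.71, and the WT points range from -0.67 to 0.99 at RT and from -1.39 to 0.20 at TN.

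Among 8894 other genes with a mean of at least 5 TPM, the pattern over the 12 libraries most like that mean was that of Eno1, a glycolytic enolase (Pearson r = 0.957). Next came Aacs, a cytosolic acetoacetyl-CoA synthetase that feeds ketone bodies into lipid synthesis (r = 0.939), Immp2l, a subunit of the mitochondrial inner membrane peptidase (r = 0.898), Scd1, the stearoyl-CoA desaturase (r = 0.880), and 2810004N23Rik (r = 0.879). With the group means taken off, r was 0.935, 0.906, 0.842, 0.807 and 0.896. These are descriptions over 12 libraries in 4 groups that share library scaling and preparation. Aacs was 90.3, 98.3 and 173 TPM in RT WT and 63.2, 125 and 115 TPM in TN WT, and Scd1 was 15353, 11705 and 17425 TPM in RT WT and 6376, 16369 and 12966 TPM in TN WT.

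The rest of the pathway was read from lists of related genes, whose counts are to be read against the shares of all genes called. At TN against RT these were 31.4% higher and 6.39% lower in WT and 30.9% and 8.27% in Txnip-/-. Between genotypes they were 1.49% in either direction at RT, and 6.49% higher and 2.17% lower at TN, while 16.0% of all genes at RT and 25.6% at TN had an unadjusted p under 0.05. For the counts under another scaling, the shares at TN against RT were 17.5% higher and 14.1% lower in WT and 21.2% and 16.7% in Txnip-/- with upper-quartile scaling, and 15.4% and 14.7% in WT and 18.4% and 19.5% in Txnip-/- with median centring. Of 26 tested genes that supply acetyl-CoA, citrate and NADPH upstream, 0 were called between genotypes at either temperature by limma, with 3 at RT and 5 at TN under an unadjusted p of 0.05, both smaller shares than those of all genes. At TN against RT, 8 of 26 were called lower and 1 higher in WT, and 10 lower and 1 higher in Txnip-/-, with list medians of -0.22 and -0.26. The largest were Hk2, hexokinase 2 (-0.92 in WT and -1.05 in Txnip-/-, limma adjusted p = 0.00305 and 0.00113), and Gpd1, which makes glycerol 3-phosphate (-0.80 and -1.01, limma adjusted p = 0.00108 and 0.000172). The mitochondrial pyruvate carrier genes Mpc1 and Mpc2 were lower by -0.63 and -0.76 in WT and by -0.86 and -0.94 in Txnip-/-. The call that was higher in WT was Slc2a4, the insulin-responsive glucose transporter, and the one in Txnip-/- was Me2, the mitochondrial malic enzyme. Neither was called with upper-quartile scaling or median centring, under which 15 of the 26 were called lower in WT, 16 in Txnip-/- and 0 higher.

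Malonyl-CoA also blocks mitochondrial fatty acid import. Of 9 tested genes on its other fates and on mitochondrial fatty acid synthesis, 2 were called lower in Txnip-/- at TN and 0 higher. The list median was -0.24, and 6 of the 9 had an unadjusted limma p under 0.05, all lower, against 25.6% of all genes. Mlycd, malonyl-CoA decarboxylase, was 50.6, 47.0 and 54.9 TPM in TN WT and 38.1, 42.7 and 38.2 TPM in TN Txnip-/- (-0.35, limma adjusted p = 0.0358). Cpt1b, the muscle and brown fat form of the importer that malonyl-CoA inhibits, was 531, 431 and 424 TPM in TN WT and 283, 244 and 362 TPM in TN Txnip-/- (-0.65, limma adjusted p = 0.0355). The groups of both genes did not overlap. Both were also lower at TN than at RT, by -0.60 and -0.35 in WT and by -0.77 and -0.69 in Txnip-/-. The liver form Cpt1a was called higher at TN in Txnip-/- (0.37, limma adjusted p = 0.0430), but not with upper-quartile scaling (0.22) or median centring (0.18). Of the 9 genes, 2 were called lower at TN in WT and 4 in Txnip-/-, and 5 and 8 with either scaling. Cpt1b shares 81.4% of its exon bases with the same-strand gene Gm44502, so its value is uncertain. At RT, 0 of the 9 were called between genotypes by limma, with 1 under an unadjusted p of 0.05.

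Genes for the steps after palmitate were called in both directions. By limma at an unadjusted p under 0.05, 6 of 13 tested differed between genotypes at RT, with 5 higher in Txnip-/- and 1 lower. At TN 5 of 14 did, with 3 higher and 2 lower. Of 13 genes of elongation and desaturation tested at RT, Elovl5 was called higher in Txnip-/- (0.53, limma adjusted p = 0.0326) and Elovl3 lower (-1.52, limma adjusted p = 0.0487). Elovl3, which makes very long saturated chains, is also on the list of brown adipocyte markers, and its call was lost with upper-quartile scaling and with median centring (limma adjusted p = 0.0564 and 0.0544), at nearly the same log2 fold change (-1.55 in each). At TN, of 14 tested, Elovl6, the elongase that takes palmitate to stearate, was called higher at 84.7, 138 and 86.1 TPM in WT against 171, 150.5 and 199 TPM in Txnip-/- (0.78, limma adjusted p = 0.0432). Hsd17b12, the ketoacyl-CoA reductase of the same cycle, was called lower (-0.38, limma adjusted p = 0.0420). Against RT, 3 of 13 were called higher and 5 lower at TN in WT, and 4 and 5 in Txnip-/-. The desaturases Fads1, Fads2 and Fads3 were higher in both (Fads1 by 1.04 and 1.08, limma adjusted p = 0.000119 and 4.22e-05), and Elovl3 (-3.05 and -2.80), Elovl5, Elovl6 (-1.08 in WT), Hacd2 and Hsd17b12 were lower in both.

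Of 7 tested partners and targets of Mlxipl, 2 were called higher in Txnip-/- at TN and 0 at RT by limma. With an unadjusted p under 0.05, 3 were higher at TN, and 4 were higher and 1 lower at RT. The list medians were 0.10 at TN and 0.19 at RT. Arrdc4, an alpha-arrestin related to Txnip, was 4.75, 6.48 and 4.94 TPM in TN WT and 14.2, 14.6 and 12.1 TPM in TN Txnip-/- (1.201, limma adjusted p = 0.00314). Thrsp, a small acidic lipogenic protein, was 1865, 2342 and 2140 TPM in TN WT and 3118, 3219 and 3292 TPM in TN Txnip-/- (0.61, limma adjusted p = 0.0123). Neither gene overlapped between genotypes at TN. Mlx was lower at TN than at RT (-0.42 in WT and -0.38 in Txnip-/-, limma adjusted p = 0.0126 and 0.0190), and Khk, ketohexokinase, was higher (0.48 and 0.49, limma adjusted p = 0.00110 and 0.000730). With median centring Khk was not called in either genotype (0.300 and 0.302), and with upper-quartile scaling it was not called in WT. Thrsp was called lower at TN in WT (-0.42, limma adjusted p = 0.0148) and not in Txnip-/-, where it was called lower with upper-quartile scaling and median centring (-0.41 and -0.44). By limma 0 genes of the list were called in the interaction, with 1 under an unadjusted p of 0.05. Klf10 and Arrdc4 were called higher at TN in Txnip-/- (0.86 and 0.98).

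Acetyl-CoA carboxylase is also set by its partners and by phosphorylation. Of 12 such genes tested, 2 were called higher in Txnip-/- at TN, Thrsp and Mid1ip1, whose protein promotes polymerization of the carboxylase and pairs with that of Thrsp. Mid1ip1 was 56.2, 90.3 and 71.3 TPM in TN WT and 126.5, 102 and 118 TPM in TN Txnip-/- (0.68, limma adjusted p = 0.0378), and 543 of its exon bases are shared with Gm14493 on the opposite strand. By limma 0 of the 12 were called at RT, with 4 under an unadjusted p of 0.05 and 3 under it at TN. From RT to TN, 5 were called higher and 1 lower in WT, and 3 higher and 0 lower in Txnip-/-. Mid1ip1 was higher by 1.52 and 1.53 (limma adjusted p = 0.000162 and 7.39e-05), Prkag2, a regulatory subunit of AMP-activated kinase, by 1.00 and 0.91, and Trib3, a pseudokinase that promotes degradation of the carboxylase, by 2.15 and 0.95. Hlcs, which attaches biotin to the carboxylase, and Prkab1 were higher in WT, calls that both scalings removed. With either scaling 3 were called higher and 2 lower in WT, and 3 and 3 in Txnip-/-, with Stk11, the kinase that activates AMP-activated kinase, lower in both (-0.39 in each with upper-quartile scaling).

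Of 17 genes for processing and activity of SREBP, 0 were called between genotypes at RT or TN by limma, with 2 and 3 under an unadjusted p of 0.05, both smaller shares than those of all genes, and the largest fitted value was that of Insig1, a protein that holds SREBP in the endoplasmic reticulum (0.36 at RT and -0.90 at TN, limma adjusted p = 0.32 and 0.23). At TN against RT, 4 were called higher and 1 lower in each genotype. Nr1h3, liver X receptor alpha, was lower (-0.50 and -0.56, limma adjusted p = 0.000508 and 0.000142), while Srebf2, Sp1 and the site 2 protease gene Mbtps2 (0.45 and 0.41) were higher in both. Srebf2 was higher by 0.42 in WT (limma adjusted p = 0.00288). The counts depended on the scaling. With upper-quartile scaling 1 was called higher and 2 lower in WT and 2 and 2 in Txnip-/-, with median centring 1 and 3 in each, and neither Srebf2 nor Mbtps2 was called under either, although both stayed above 0 (Srebf2 at 0.25 and 0.19 and Mbtps2 at 0.30 and 0.27 in WT and Txnip-/- with upper-quartile scaling), while Sp1 lost its call only in Txnip-/- with median centring.

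In the sterol arm, which SREBP-2 governs, 1 of 15 genes was called between genotypes, Fdft1, squalene synthase, at TN (0.57, limma adjusted p = 0.00428), and the list median was -0.17. At RT 0 were called by limma, with 2 under an unadjusted p of 0.05 and 3 under it at TN. Fdft1 shares 774 exon bases with Ctsb on the opposite strand. At TN against RT, 5 were called higher and 3 lower in WT and 2 and 3 in Txnip-/-, with Hmgcs1 lower (-0.63 and -1.06) and Stard4 higher (0.79 and 0.75) in both. With either scaling 2 were called higher and 4 lower in WT. Of 11 genes of insulin and thyroid hormone input, 0 were called at RT by limma (1 with an unadjusted p under 0.05) and 1 at TN, Dio2, which makes active thyroid hormone and is itself a brown adipocyte marker (-0.98, limma adjusted p = 0.0445). By limma 3 of the 11 had an unadjusted p under 0.05 between genotypes at TN. Dio2 was lower at TN than at RT by -4.04 in WT and -3.91 in Txnip-/-. Mtor was lower (-0.36 and -0.53) and Thra higher (0.37 and 0.39) in both, but Thra was not called with either scaling, under which 0 genes of this list were called higher in either genotype.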

How the data were processed

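RNA-seq was made from interscapular BAT of 12 mice, 3 for each combination of genotype (WT, Txnip-/-) and temperature (RT, TN). Headers of the tables give between 29.9 and 47.4 times 1000000 reads per library. The authors selected poly-A RNA, used STAR 2.7.5a to place single-end reads on mm10 and counted reads on exons with HOMER 4.11.1, keeping 1 transcript per gene. The deposited TPM of all 12 libraries, scaled by the authors for transcript length and library size, were the values used, and the listed genes hold 55.4% to 57.6% of the full TPM sum of a library. For each temperature the authors also deposited log2 values of its 6 libraries, by a transform not given in the sources used here, which served as an alternative. Their deposited columns of log2 fold changes and p-values, from DESeq2, were not used. For Acly and Mlxipl these tables keep another transcript than the TPM table.

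Genes with a mean of at least 1 TPM over the libraries compared were tested on log2(TPM + 1) with limma 3.58.1 in R 4.3.3 (empirical Bayes, variance trend with expression level), with p-values adjusted by Benjamini-Hochberg. Txnip-/- and WT were compared on the 6 libraries of each temperature. TN against RT and the interaction were fitted on all 12 libraries with 4 group means. A gene was called at an adjusted p under 0.05 and a fold below 0.8 or above its inverse, the study's thresholds, and in the interaction at an adjusted p under 0.05. Adding 1 to TPM makes fold changes of low genes smaller than the ratio of their TPM. The fit was tested on simulated data. TPM do not give counting error, so the spread between libraries set the precision.

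The lipogenic genes and the lists of related genes and of cell type markers were chosen with earlier results of these data known. All 9 lipogenic genes are named, with Txnip as a check of the labels and, of each list and comparison, up to 4 called genes by size of the log2 fold change, or the gene with the largest value where none was called. The 5 genes of most similar pattern were taken by Pearson r among genes with a mean of at least 5 TPM. Other genes named beside counts of 5 or fewer were chosen after their values were seen. The alternatives were log2(TPM + 0.1), no filter or a mean of at least 5 TPM, upper-quartile scaling, median centring, no trend, the replicate number as a block, other thresholds, the omission of each library, other sets of libraries in the fit, and the authors' log2 values. For the lists, scaling was the alternative given, and it was chosen for them after the values were seen. Sequences were read from the RefSeq promoter table (GRCm38.p6), and shared exon bases from GENCODE M21. Plots used Python 3.11.15 and matplotlib 3.10.9.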

Additional observations from a re-analysis of the deposited data

How the results depend on the processing

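The count of lipogenic genes called between genotypes at RT was 0 and ranged from 0 to 4 when 1 library was left out. At TN it was 1, with 0 when no filter was applied, 2 with the authors' log2 values (Acaca added), 2 at an adjusted p under 0.1, and 0 to 4 when 1 library was left out. The interaction gave 0 in every alternative. The count for TN against RT in WT was 5, with 4 when no filter was applied (Acacb lost), 3 when only the 6 WT libraries were fitted and 2 to 5 with 1 library left out. In Txnip-/- it was 3, with 5 under upper-quartile scaling, 5 under median centring, 6 when only its 6 libraries were fitted, 4 at an adjusted p under 0.1 (Fasn added), and 1 to 5 with 1 library left out. Labels give the groups the same replicate numbers. With the replicate number as a block the counts were 0 at RT, 1 at TN, 0 for the interaction, 5 in WT and 3 in Txnip-/-, and it changed no call of a lipogenic gene. The deviations of same-numbered libraries from their group means correlated across genes by 0.297, -0.022 and 0.21 at RT and by 0.042, 0.023 and -0.036 at TN. Libraries of different numbers were not correlated for comparison, so these values cannot decide whether the numbers mark pairs. Among 882 log2 fold changes of single genes over all alternatives, 784 kept their direction and their side of the threshold.

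Fold changes that turned direction were not called in either form. With 1 library left out, the log2 fold change of Txnip-/- over WT at RT ranged from -0.027 to 0.42 for Slc25a1, from -0.56 to 0.10 for Acss2 and from -0.21 to 0.23 for Me1. At TN it ranged from -0.50 to 0.084 for Acss2, from -0.21 to 0.23 for Me1 and from -0.19 to 0.32 for Srebf1, which was -0.00506 with median centring. TN over RT in WT ranged from -0.38 to 0.53 for Acly. The interaction ranged from -0.14 to 0.31 for Slc25a1, from -0.75 to 0.16 for Acly, from -0.31 to 0.35 for Acss2, from -0.23 to 0.23 for Acaca, from -0.22 to 0.054 for Acacb, from -0.25 to 0.26 for Me1 and from -0.22 to 0.20 for Mlxipl. It was 0.0061 for Acaca with upper-quartile scaling and -0.0035 for Mlxipl with median centring. Acss2 and Me1 turned without replicate 3 of RT WT at RT and without replicate 2 of TN WT at TN, and Acly turned in WT most without replicate 3 of RT WT. The causes were not tested.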
